A study of Mus musculus with 17 samples.

Results

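The comparison described here set FOXA2-positive cells given retinoic acid and then LDN against FOXA2-positive cells given retinoic acid only. Its members were chosen by library title, and they are 5 of the 17 libraries of the series, 2 with LDN (numbered 2 and 3) and 3 with retinoic acid only. All of them came from R1, a mouse embryonic stem cell line, with a FOXA2-Venus reporter genotype, and were made with SMART-Seq v2 from total RNA. The series concerns the floor plate of neural tube organoids and its dependence on bone morphogenetic protein (BMP) signals, and its other 12 libraries hold a BMP4 arm and the FOXA2-negative cells of all 3 arms. The LDN cells were kept in retinoic acid for 18 hours, left untreated for 6 hours and then exposed for 8 hours to the agent the labels call LDN, a name used for small inhibitors of the type I BMP receptors. For the retinoic acid cells the labels give the 18 hours alone, so the effect of LDN and a difference in time of collection cannot be told apart. The cells are 1 stem cell line with 1 reporter, and the labels name no dose. No FOXA2-positive LDN library numbered 1 is among the 17 libraries.

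BMP ligands bind pairs of type I and type II receptor kinases, which phosphorylate SMAD1, SMAD5 and SMAD9. These enter the nucleus with SMAD4 and switch on a small set of direct targets, among them the Id genes, the inhibitory Smad6 and Smad7, and the homeobox genes Msx1 and Msx2. In the neural tube BMPs come from the roof plate and the surface ectoderm and set dorsal identity, while Sonic hedgehog from the notochord and the floor plate sets ventral identity. FOXA2 is the forkhead factor that marks the floor plate, and it is also present in the endoderm and the notochord.

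The 5 libraries held between 8811202 and 10796136 counts assigned to genes. Foxa2 was between 18.4 and 44.2 in them (CPM, counts scaled to a common library size with TMM factors, used for every level below), against 0 to 2.94 CPM in the FOXA2-negative libraries of both arms. The retinoic acid library numbered 1 stood apart. Its Spearman correlation across 6669 genes was 0.914 and 0.911 with the other retinoic acid libraries, which correlated at 0.952 with each other, and 7.43% of its counts were mitochondrial against 4.48% and 4.5%. The LDN libraries had 3.62% and 3.83% mitochondrial counts and correlated at 0.936. No library pair agreed within sampling noise, and each was counted as 1 replicate. The labels do not say whether libraries of a group are separate cultures, and the p-values then reflect library-to-library spread that may be purely technical.

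Few genes passed the test, and the clearest of them were BMP target genes, all lower with LDN. Of 17813 genes tested, 37 (0.208%) had an adjusted p under 0.05 by edgeR's quasi-likelihood test with Benjamini-Hochberg adjustment. With LDN 13 of them were higher (0.0730% of genes tested) and 24 lower (0.135%), and 36 were protein coding. The libraries of the groups did not overlap for any of the 37, as was the case for 26.0% of all genes tested (11.7% higher and 14.2% lower with LDN). At an unadjusted p under 0.05 there were 1666 genes, and the median log2 fold change of all genes tested was -0.05. Of the genes tested, 1301 had counts in the retinoic acid group but none in the LDN group, and 271 the reverse. The LDN group has 2 libraries, with 16674 and 16139 genes detected, against 17260 to 18059 in the 3 retinoic acid libraries. The plot of named genes shows 27 that met the naming rule and 2 further members of gene lists.

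**Figure D1:**
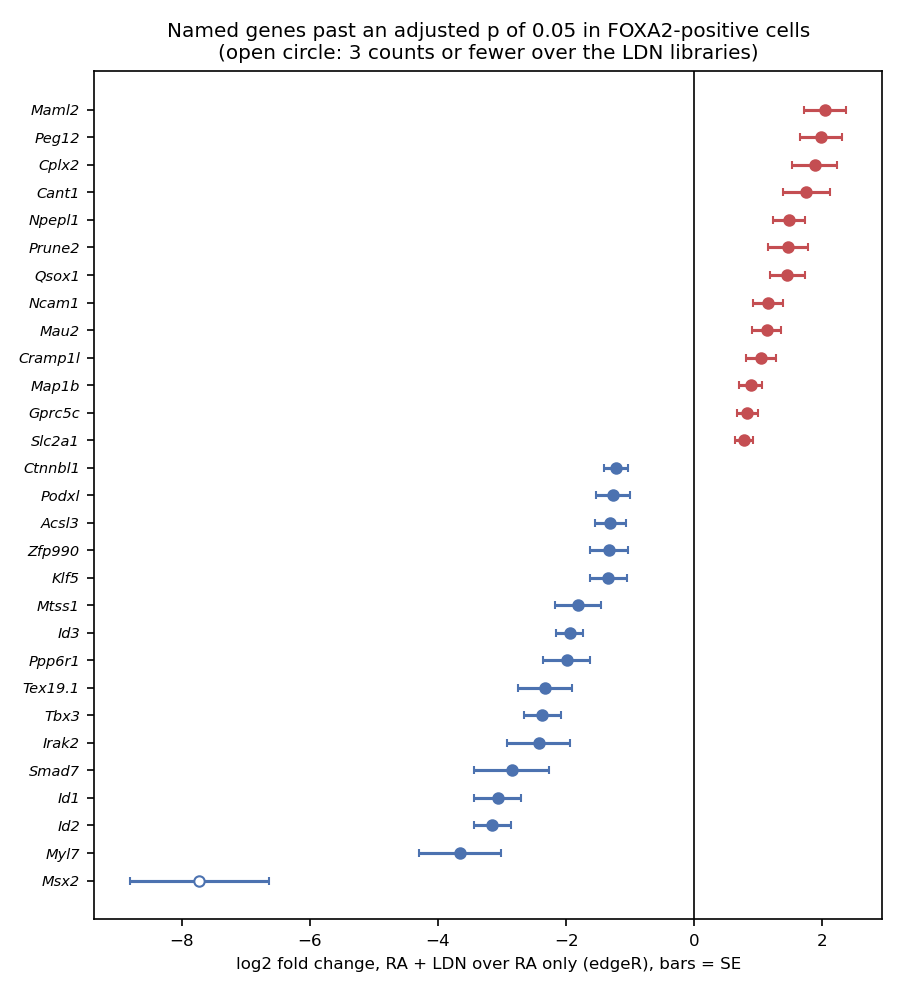
Log2 fold change (x axis, RA + LDN over RA only, edgeR) of 29 named genes with an adjusted p under 0.05 in FOXA2-positive cells, with bars for the standard error, blue for lower and red for higher with LDN, and an open circle for the gene without a count in the LDN libraries. Lower genes reach further from 0 than higher genes, from Ctnnbl1 at -1.22 to Myl7 at -3.65 (Msx2, without LDN counts, has no finite fold), while the higher ones lie between 0.77 (Slc2a1) and 2.04 (Maml2).

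Among the direct BMP targets, 6 of the 15 list members, all measured, were called lower with LDN (Id1, Id2, Id3, Smad7, Tbx3 and Msx2) and none was called higher. The libraries did not overlap for 10 members that were lower and 3 that were higher. The median log2 fold change of the list was -1.94, or -1.39 with the 3 members without an LDN count set at the bound that 3 counts over the group allow. Summed over the list, the retinoic acid libraries were between 737 and 794 CPM and the LDN libraries between 275 and 304 CPM. In bulk RNA, fewer cells that express a gene and less of its RNA in each cell cannot be told apart.

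The Id genes encode helix-loop-helix proteins without a DNA-binding region, which hold back neurogenic partners and are textbook immediate targets of BMP signals. Id2 (chromosome 12, 25093799 to 25097140, reverse strand, mm10) was at 57.6, 54.0 and 53.2 CPM in the 3 retinoic acid libraries and at 6.34 and 6.02 CPM in the LDN libraries. Replicates of each group lay close together, and the groups were far apart. The mean fell from 54.9 ± 2.38 CPM (SD, n = 3) to 6.18 ± 0.229 CPM (SD, n = 2), 8.89-fold, with a log2 fold change of -3.15 ± 0.29 (SE) and an adjusted p of 1.01e-06, the smallest of all genes tested. Id1 (chromosome 2, 152736251 to 152737410, forward strand) was at 82.5, 66.25 and 71.9 CPM with retinoic acid only and at 14.1 and 3.01 CPM with LDN. Its LDN libraries differed from each other more than those of Id2 did, but both lay below every retinoic acid library (log2 fold change -3.07 ± 0.36, adjusted p = 1.06e-04). Id3 (chromosome 4, 136143497 to 136145755, forward strand) was the most abundant of the called targets by counts, with 207, 186 and 199.7 CPM against 49.9 and 53.1 CPM. It fell 3.84-fold (log2 fold change -1.94 ± 0.21, adjusted p = 1.35e-05). Id4, the remaining family member, had 1 count over the retinoic acid libraries and 15 over the LDN libraries, and its difference did not pass the test (adjusted p = 0.591).

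Id2 had the smallest p of all genes, and a stretch before its RefSeq start is printed for that reason. It is RefSeq sequence of build GRCm38.p6 at chr12:25096254-25096342 on the reverse strand, 89 bases left after removing annotated exons from the 250 bases before that start. GENCODE also has a longer Id2 transcript that begins at 25097140, so the stretch lies inside the gene interval given above, in the first intron of that transcript. Capitals mark the letters GGCGCC, a GC-rich sequence known from SMAD-bound BMP enhancers.
Id2: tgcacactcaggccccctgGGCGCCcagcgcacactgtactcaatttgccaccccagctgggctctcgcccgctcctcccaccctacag
This motif was searched on both strands (it is its own reverse complement) and was chosen after the values were seen. It occurred in 9.59% of the 32851 RefSeq windows of 250 bases and in those of 3 of the 9 listed BMP targets with a window (Id2, Id4 and Smad9). It also occurred in 21.3% of the windows of all list members and called genes and in 21.4% of those of called genes. Of the BMP targets called lower, Id1, Tbx3 and Smad7 had no window and were not searched. Among Id2, Id3 and Msx2 only Id2 had it.

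Tbx3, a T-box repressor used in limb, heart and naive stem cells (chromosome 5, 119670669 to 119684724, forward strand), was at 25.1, 24.3 and 24.55 CPM with retinoic acid only and at 5.02 and 4.45 CPM with LDN. The retinoic acid libraries were nearly equal, and the fall was 5.21-fold (log2 fold change -2.37 ± 0.29, adjusted p = 9.99e-05). Its antisense neighbour Tbx3os1, named after its values were seen, had 136 counts over the retinoic acid libraries and none with LDN, at least 29-fold lower (adjusted p = 0.0182). The strand setting of the counting is not given in the sources used here, so reads of Tbx3 and Tbx3os1 cannot be told apart where they overlap. Msx2, a homeobox gene of the dorsal midline (chromosome 13, 53466884 to 53473074, reverse strand), was low throughout, at 4.31, 2.44 and 1.33 CPM against 0 and 0 CPM. Its 78 counts against none make it at least 16.6-fold lower with LDN, taking 3 counts over the group as the floor (adjusted p = 7.59e-04). Smad7, an inhibitory SMAD that feeds back on the receptors, was at 4.98, 8.54 and 9.615 CPM against 1.80 and 0.241 CPM. It fell 7.56-fold (log2 fold change -2.85 ± 0.59, adjusted p = 0.032), and the call ended without retinoic acid library 2 or 3 or LDN library 3 (adjusted p up to 0.441).

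Other targets moved in the same direction without passing the test, and a few did not. Msx1 was at 340.3, 394 and 416 CPM against 162 and 210.3 CPM (log2 fold change -1.05 ± 0.35, adjusted p = 0.311). Its groups did not overlap. Nog, the BMP antagonist noggin, had 44 counts over the retinoic acid libraries and none with LDN, at least 9.39-fold lower (adjusted p = 0.203), and Smad9 had 12 counts and none, at least 2.56-fold lower (adjusted p = 0.52). Smad6, the partner of Smad7 in feedback, was at 5.09, 2.44 and 4.91 CPM against 2.27 and 0.843 CPM (adjusted p = 0.578). Bambi, a pseudoreceptor that is also a BMP target, was level at 3.98, 4.32 and 4.09 CPM against 3.69 and 4.81 CPM (log2 fold change 0.04 ± 0.64). Atoh8 (log2 fold change 1.82 ± 1.06) and the Notch effector Hey1 (2.73 ± 1.63) had positive differences with wide errors and adjusted p-values of 0.587 and 0.593.

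The BMP4 arm, sorted and timed like the LDN arm, is set beside these values because it holds the opposite manipulation of the pathway. Its comparisons use the same LDN and retinoic acid libraries as above, so the values are given side by side only. With BMP4, Id1 was at 237, 238 and 274 CPM, Id2 at 123 to 143 CPM, Id3 at 447 to 557 CPM and Tbx3 at 125 to 220.4 CPM. Msx2 was at 24.1 to 27.4 CPM and Smad7 at 29.8 to 51.5 CPM. For these 6 genes each BMP4 library lay above every retinoic acid library, and each retinoic acid library above every LDN library. The called genes as a set did not all follow that order. Among the 24 lower with LDN, the BMP4 mean lay on the opposite side of the retinoic acid mean for 13. For 11 it lay between the retinoic acid and LDN means. Among the 13 higher with LDN, it lay between those means for 11 and on the opposite side for 2. Directly tested, LDN was below BMP4 by a log2 fold change of -4.84 for Id1 (adjusted p = 1.07e-07), -4.46 for Id2 (5.47e-10), -3.33 for Id3 (5.47e-10), -5.16 for Tbx3 (1.93e-10) and -5.15 for Smad7 (3.46e-05). Over all genes 57 (0.320%) differed between LDN and BMP4, 15 higher with LDN (0.0842%) and 42 lower (0.236%). Against retinoic acid only, Tbx3 was higher with BMP4 by 2.78 (adjusted p = 1.59e-07), Id3 by 1.39 (1.72e-04) and Id1 by 1.76 (0.00529) on the log2 scale. These were among 14 genes called (0.0786%), 12 higher (0.0674%) and 2 lower (0.0112%). The BMP4 cells had the same added hours as the LDN cells, so BMP4 and time of collection cannot be told apart in this contrast.

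**Figure D2:**
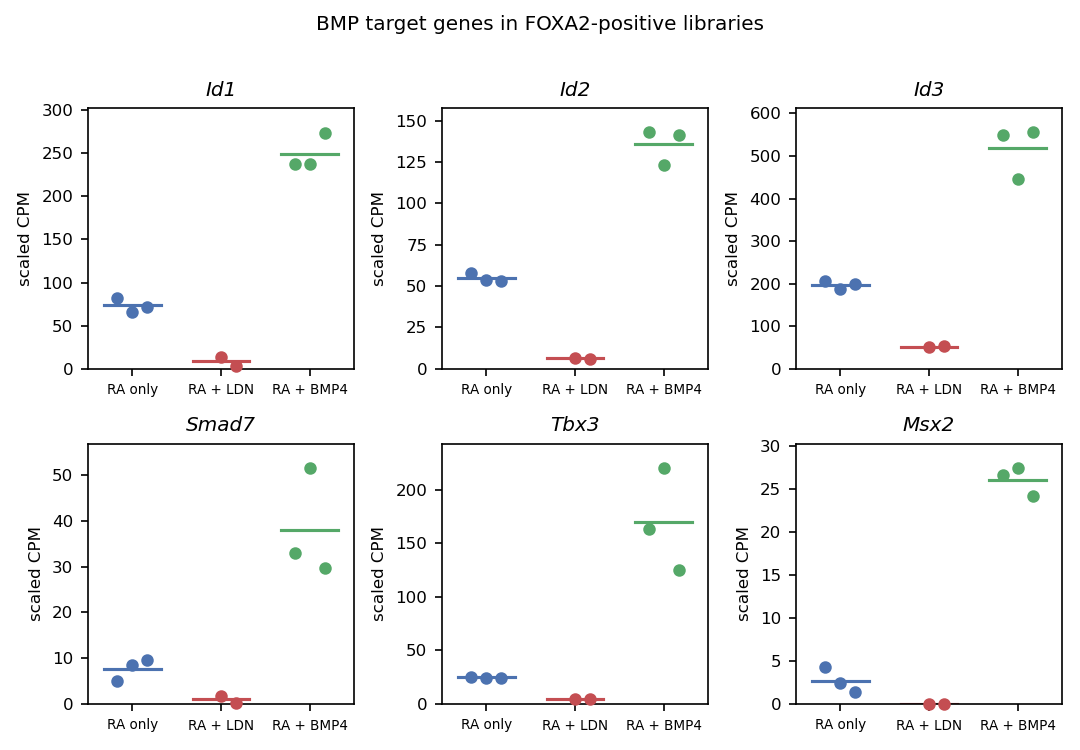
Level of 6 BMP target genes (y axis, TMM-scaled CPM, linear from 0) in each FOXA2-positive library of the RA only, RA + LDN and RA + BMP4 groups, with a line at each group mean. In every panel the LDN points lie lowest and the BMP4 points highest, with Id2 at 6.02 and 6.34 CPM under LDN against 53.2 to 57.6 CPM with retinoic acid only.

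No gene of the pathway's own machinery passed the test. Of the 12 ligands, receptors and signal-transducing SMADs measured, 0 were called, 6 had positive and 6 negative differences, and the median was 0.02. Bmp4 itself was at 7.97, 4.13 and 1.33 CPM against 5.87 and 9.15 CPM, overlapping groups (adjusted p = 0.868). Bmp7 was at 10.6, 12.9 and 16.4 CPM against 20.5 and 31.6 CPM (log2 fold change 0.97 ± 0.47, adjusted p = 0.528), without overlap. The type I receptor Bmpr1a was at 55.2, 38.6 and 43.8 CPM against 27.8 and 28.9 CPM (-0.69 ± 0.30, adjusted p = 0.467), also without overlap. Among 9 BMP antagonists measured 0 were called and 7 had negative differences, with a median of -0.56.

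Genes of the dorsal neural tube and of surface ectoderm are usual downstream readouts of BMP. Of 12 dorsal genes measured only Msx2 was called. Pax3, a dorsal and neural crest paired-box factor, was at 17.8, 17.55 and 19.5 CPM against 3.69 and 9.15 CPM, without overlap but not past the test (log2 fold change -1.52 ± 0.51, adjusted p = 0.281). The list's summed level was 455 to 499.9 CPM with retinoic acid only and 239.7 to 266 CPM with LDN, most of it Msx1. Of 14 surface ectoderm genes measured 0 were called, with 9 negative differences and a median of -0.64 (-0.69 without the 1 member that had no count in these 5 libraries). Keratins pointed both ways. Krt19 was at 28.9, 27.1 and 24.1 CPM against 5.87 and 12.2 CPM (log2 fold change -1.57 ± 0.41, adjusted p = 0.128), and Gata3 at 19.03, 26.65 and 27.1 CPM against 4.17 and 16.6 CPM (-1.24 ± 0.40, adjusted p = 0.26). Krt18 was at 75.2, 86.5 and 121 CPM against 136 and 137 CPM (0.53 ± 0.19, adjusted p = 0.32).

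The remaining genes that fell have varied known roles. Myl7, the atrial myosin light chain, was at 15.4, 11.0 and 40.4 CPM against 1.04 and 2.53 CPM (log2 fold change -3.65 ± 0.64, adjusted p = 0.00959). Ctnnbl1, a spliceosome-associated protein, was at 268, 233 and 220.0 CPM against 101 and 105 CPM (-1.22 ± 0.19, adjusted p = 0.00256). For both the lowest retinoic acid library lay well above the LDN libraries. Tex19.1, active in germ cells and placenta, fell by 2.33 on the log2 scale (adjusted p = 0.0114). Acsl3, an acyl-CoA synthetase, was at 217, 126 and 127 CPM against 61.1 and 65.7 CPM (-1.31 ± 0.24, adjusted p = 0.0125), its highest value in the retinoic acid library that stood apart. Smaller adjusted evidence was seen for Klf5, a Krüppel-like factor of naive stem cells, at 44.25, 36.9 and 50.3 CPM against 19.8 and 14.7 CPM (adjusted p = 0.0426), and Podxl, an apical sialomucin (adjusted p = 0.0421). The signalling adaptor Irak2, the phosphatase subunit Ppp6r1, the actin regulator Mtss1 and the zinc finger gene Zfp990 were also lower, with log2 fold changes between -2.43 and -1.33. Zfp990 belongs to a family of closely similar zinc finger genes, so its counts are uncertain.

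Outside the naming rule, and named after their values were seen, were 6 further lower genes. Fcgrt, the heavy chain of the neonatal Fc receptor, had 121 counts against none, at least 25.8-fold lower (adjusted p = 0.0217). Ccdc88b had 183 counts against 1, a ratio of 117 with a 95% counting interval of 20.8 to 4650. Urgcp had 143 counts against 4, and 2900011O08Rik 180 against 4. The proteasome subunit gene Psma7, at 4131, 4232 and 3842 CPM against 2111 and 1463 CPM, and the dynein light chain gene Dynll1, at 657, 725 and 694 CPM against 391 and 355 CPM, were the most abundant lower genes by counts. Both may share reads with close copies elsewhere in the genome.

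Of the 13 higher genes Ncam1 alone belongs to the neural progenitor list. Ncam1, the neural cell adhesion molecule, was at 224, 324 and 297 CPM against 565 and 681 CPM (log2 fold change 1.15 ± 0.24, adjusted p = 0.0499), and its call ended with any 1 of the 5 libraries left out (adjusted p = 0.0629 to 0.459). Map1b, a microtubule protein of growing axons, was at 234.5, 277 and 327 CPM against 534 and 492 CPM (0.88 ± 0.18, adjusted p = 0.029). Cplx2, a synaptic complexin, rose 3.69-fold from a low level of 13.6 ± 1.27 CPM (SD, n = 3), with an adjusted p of 0.013. Prune2 rose by 1.46 on the log2 scale (adjusted p = 0.0471). Of 13 neural progenitor genes measured Ncam1 alone was called, and 11 had positive differences, with a median of 0.21. Sox3, a SOXB1 factor of neural progenitors, was at 13.9, 7.32 and 15.75 CPM against 37.0 and 31.2 CPM (1.47 ± 0.42, adjusted p = 0.166). Sox1 was at 18.4, 13.6 and 14.1 CPM against 35.1 and 30.9 CPM (1.10 ± 0.43, adjusted p = 0.395). Neither gene's groups overlapped, whereas Sox2 was at 86.6 to 128 CPM against 114.5 and 122 CPM. The 2 list members with negative differences, Cdh2 and Pax6, did not overlap either and were not called. Over the 14 alternative settings their log2 fold changes were -1.08 to -0.60 and -0.61 to -0.37. Of 10 proneural and early neuronal genes measured 0 were called, 5 had positive and 5 negative differences, and the median was 0.05, with overlapping libraries for each.

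Maml2, a Mastermind coactivator of Notch, had the largest rise of the named genes. It was at 24.0, 50.1 and 33.35 CPM with retinoic acid only and at 146 and 149.7 CPM with LDN, 4.12-fold higher (log2 fold change 2.04 ± 0.33, adjusted p = 0.00367). Even its highest retinoic acid library was far below both LDN libraries. Of the 13 Notch pathway genes measured 0 were called, 9 had positive differences and the median was 0.62. The receptor Notch2 was at 460, 838.5 and 879 CPM against 1411 and 1646 CPM (1.07, adjusted p = 0.0626). It was lowest in the retinoic acid library that stood apart and was called in 6 of 14 alternative settings. The effector Hes5 was at 13.9, 26.65 and 7.88 CPM against 51.4 and 75.1 CPM (1.97 ± 0.74, adjusted p = 0.417).

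Slc2a1, which encodes the glucose transporter GLUT1, was at 571, 603 and 611 CPM against 1085 and 947 CPM (log2 fold change 0.77 ± 0.14, adjusted p = 0.013). Groups were tight, and the BMP4 libraries were at 313, 325 and 382 CPM, below the other FOXA2-positive libraries. Among the 18 glucose transport and glycolysis genes measured it alone was called, with 12 positive differences and a median of 0.23. Pkm was at 605.5, 688 and 743 CPM against 808 and 837.5 CPM (0.28 ± 0.14, adjusted p = 0.543). Peg12, a paternally expressed imprinted gene, rose 3.94-fold (adjusted p = 0.00984), and Gprc5c, an orphan receptor, rose from 848, 1222 and 1103 CPM to 1828 and 1940 CPM (adjusted p = 0.0315). The other 5 named higher genes were Cant1, Npepl1, Qsox1, Mau2 and Cramp1l, with log2 fold changes of 1.04 to 1.75.

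Floor plate genes gave no call. Foxa2 was at 30.9, 18.4 and 19.8 CPM with retinoic acid only and at 44.2 and 39.7 CPM with LDN, groups that did not overlap (log2 fold change 0.87, adjusted p = 0.701). Shh, the ventral signal of the floor plate, had no count in the retinoic acid libraries and 11 counts over the LDN libraries, too few for the test, and Corin and Ferd3l had none in either. Over the 9 floor plate genes measured 7 differences were positive and the median was 0.64, against -0.05 for all genes. The summed level of the list was 94.9 to 126 CPM against 155 to 185 CPM. Hedgehog pathway genes had a median of -0.05 over 12 measured and no call. Gli1, a transcriptional target of the pathway, was at 9.73, 7.13 and 6.44 CPM against 33.4 and 18.5 CPM (1.74 ± 0.48, adjusted p = 0.153). Gli3, which acts mainly as its repressor, was at 87.4, 56.5 and 58.6 CPM against 21.9 and 29.4 CPM (-1.40 ± 0.32, adjusted p = 0.0639). The receptor and target Ptch1 was at 141, 105 and 65.3 CPM against 55.1 and 79.3 CPM, with overlap.

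Retinoic acid response genes were measured because both arms had the same 18 hours of retinoic acid but the LDN arm had a gap and 8 further hours. None of 16 was called, and the median was -0.12. Cyp26a1, the enzyme that breaks retinoic acid down and its best known target, was at 29.3, 47.8 and 42.45 CPM against 16.1 and 31.8 CPM (log2 fold change -0.74, adjusted p = 0.693). Rarb, a receptor induced by its own ligand, was at 16.7, 13.9 and 16.98 CPM against 7.86 and 12.0 CPM (-0.67, adjusted p = 0.684), without overlap. Stra8 was at 543, 622 and 503 CPM against 441 and 421 CPM (-0.37, adjusted p = 0.542). Cyp26a1 was the 1 gene among the 366 called genes and list members with a RefSeq window to hold a direct repeat of AGGTCA or AGTTCA with 5 bases between, searched on both strands, a site for retinoic acid receptors. Only 0.0335% of the 32851 windows held it. The printed 240 bases are chr19:37697558-37697797 on the forward strand of GRCm38.p6, and the capitals mark the repeat, which reads from the other strand.
Cyp26a1: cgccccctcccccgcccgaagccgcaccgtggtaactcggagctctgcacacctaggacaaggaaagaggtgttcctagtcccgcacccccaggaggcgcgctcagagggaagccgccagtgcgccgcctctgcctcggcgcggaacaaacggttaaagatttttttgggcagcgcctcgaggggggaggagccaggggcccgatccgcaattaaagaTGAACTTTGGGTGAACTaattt
The Hox genes, which retinoic acid induces from the 3' end of each cluster, leaned lower. For paralogues 1 to 5, 13 of 15 measured had negative differences (median -0.37), and for paralogues 6 to 13, 13 of 14 (median -1.03, or -0.99 with members without an LDN count at their bound). None was called.

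Genes of pluripotency and of other FOXA2-expressing tissues were checked for what else the sorted cells could hold. Of 17 pluripotency genes measured Klf5 and Tbx3 were called lower, and the median was -0.11 (-0.13 with Nanog, which had no LDN count, at its bound and without the 1 member that had no count in these 5 libraries). Pou5f1, the core factor OCT4, was at 14.3, 8.63 and 14.9 CPM against 11.7 and 6.499 CPM, and Zfp42 at 21.8, 19.7 and 17.5 CPM against 16 and 13.6 CPM (adjusted p = 0.665 and 0.659). The summed level of the list was 1378 to 2810 CPM against 3310 to 3771 CPM, most of it Lin28a (953 CPM in the retinoic acid library that stood apart, 2223 to 3295 CPM in the other 4). Of 12 endoderm genes measured 0 were called, and the summed level was 65.0 to 90.0 CPM against 73.3 to 101 CPM. Sox17 was at 21.0, 27.3 and 18.1 CPM against 33.5 and 57.5 CPM, and Afp had no count in these libraries. Notochord genes summed to 2.88 to 5.35 CPM against 8.14 to 9.39 CPM, with T between 0 and 3.22 CPM and Noto between 0 and 0.189 CPM. The part of these cell types in the differences above was not tested. Genes of the 2-cell-like state, a rare state of stem cell cultures, summed to 0.205 to 7.98 CPM against 0.189 to 0.241 CPM. Of 12 measured 0 were called, and their median was -2.32 (-1.86 with members without an LDN count at their bound).

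**Figure D3:**
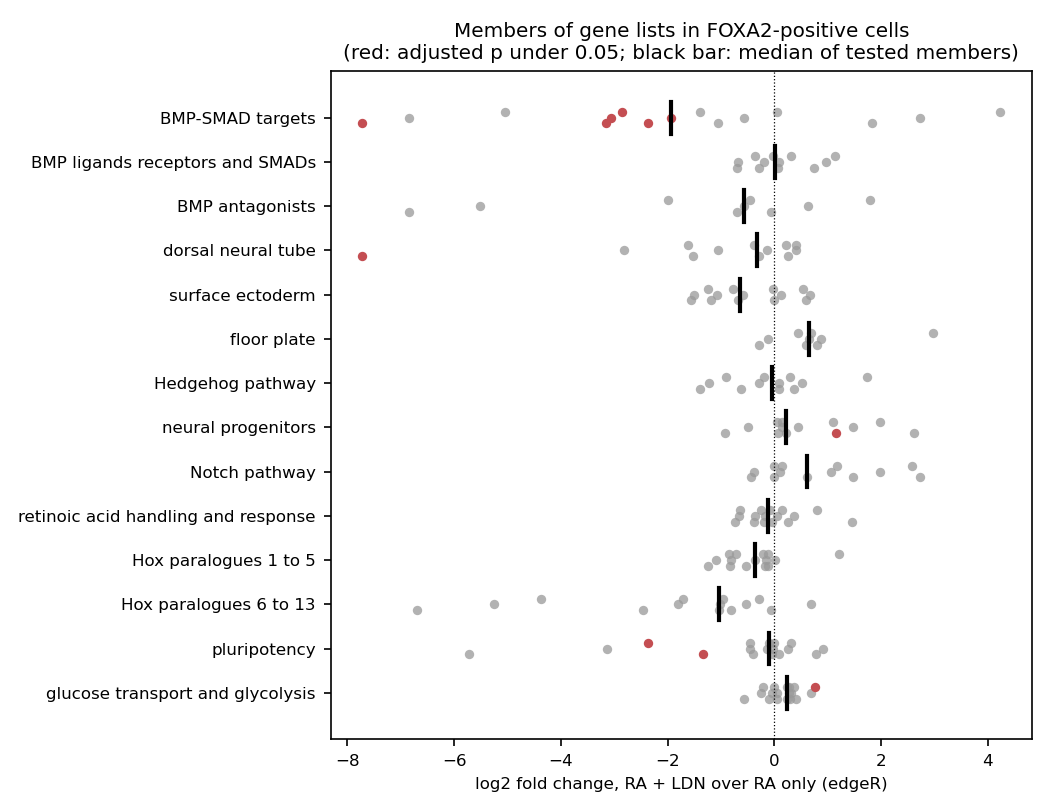
Log2 fold change (x axis, RA + LDN over RA only, edgeR) of every tested member of 14 gene lists in FOXA2-positive cells, red where the adjusted p was under 0.05, with a black bar at each list's median. Points below -4 had no count in the LDN libraries and mark fitted values, not bounds. Of the lists drawn, the BMP-SMAD targets hold the most red points, 6 of 15.

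The same comparison in FOXA2-negative cells, made from 6 other libraries, gave 7 calls (0.0393% of genes tested, 2 higher, 0.0112%, and 5 lower, 0.0281%). Fractions of an arm share numbers in their titles and may come from the same cultures. Deviations of same-numbered fractions correlated at 0.239 to 0.590 in the retinoic acid arm and at 0.055 and 0.059 in the LDN arm. Differently numbered fractions correlated at -0.401 to 0.247 in the retinoic acid arm, a range that overlaps the same-numbered one. In the LDN arm they correlated at -0.059 to 0.003. The fractions may therefore not be independent. Unless a block for arm and number is named, differences between fractions come from the main model, which has no term for shared numbers. Of the 37 genes, 32 had the same sign there, and 5 were called in both fractions, namely Id1, Id2, Id3, Slc2a1 and Map1b. Id2 fell by 3.39 on the log2 scale in FOXA2-negative cells and by 3.15 in FOXA2-positive cells, a difference of 0.24 ± 0.36 (SE). For Slc2a1 the rises were 0.79 and 0.77, with a difference of -0.02 ± 0.19, and for Map1b 0.90 and 0.88, with a difference of -0.02 ± 0.24. None of these 3 differences passed the test (adjusted p = 1 each).

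Ctnnbl1 and Tex19.1, which fell in FOXA2-positive cells, had differences near 0 in FOXA2-negative cells, but the test of the difference between fractions did not pass for either. Ctnnbl1 was at 198, 175 and 168 CPM against 171, 214 and 166 CPM in FOXA2-negative cells (log2 fold change 0.03 ± 0.16), a difference between the fractions of -1.25 ± 0.25 with an unadjusted p of 3.08e-05 and an adjusted p of 0.232 (-1.29 ± 0.23 and 0.0853 with a block for arm and number). Tex19.1 (-0.02 ± 0.32 there) had a difference of -2.32 ± 0.52 (adjusted p = 0.371). Tbx3 had -1.18 ± 0.23 there (adjusted p = 0.056) and a difference of -1.19 ± 0.36 (adjusted p = 0.86). Over all genes edgeR called 1 such difference (0.00561%), the non-coding Gm17251, whose change lay in the FOXA2-negative cells, while 1035 genes had an unadjusted p under 0.05 and DESeq2 called 6, among them Ctnnbl1, Psma7 and Dynll1.

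**Figure D4:**
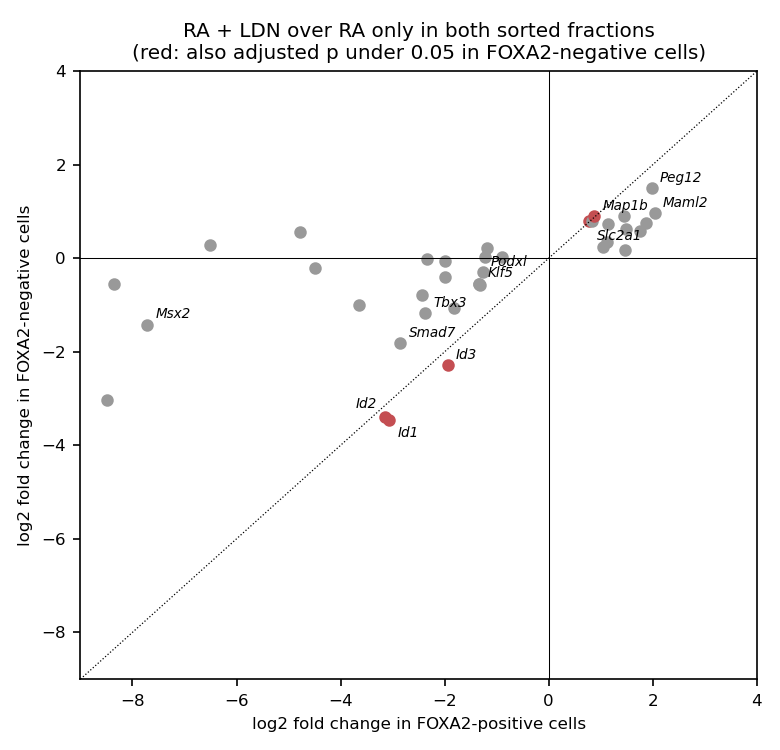
Log2 fold change of RA + LDN over RA only for the 37 called genes in FOXA2-positive cells (x axis) against FOXA2-negative cells (y axis), red where the adjusted p was under 0.05 in both, with a dotted line of equal change. Id1, Id2, Id3, Slc2a1 and Map1b lie near that line, while most other lower genes lie between it and 0. Genes were chosen by the x axis, and points at x below -4 rest on 4 counts or fewer in the LDN libraries.

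How firmly each gene was called differed. Id1, Id2, Id3 and Tbx3 kept their call in each of 14 alternative settings, including each of the 5 libraries left out in turn. Msx2 kept it in 13, being lost when the 5 libraries were fitted alone. Maml2 also kept it in 13, being lost without LDN library 3 (adjusted p = 0.0559). The other called genes each lost their call without at least 1 library, and none of the 37 changed sign. Of the 37, 21 stayed called without retinoic acid library 1, 28 without library 2, 16 without library 3, 13 without LDN library 2 and 6 without LDN library 3. Counts moved with single libraries, from 37 calls to 23 without retinoic acid library 1, 18 without library 3, 22 without LDN library 2, and 9 (0 higher) without LDN library 3, where edgeR gave 1133 genes an unadjusted p under 0.05. With a library of LDN left out, the other was assumed to vary like the remaining groups.

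**Figure D5:**
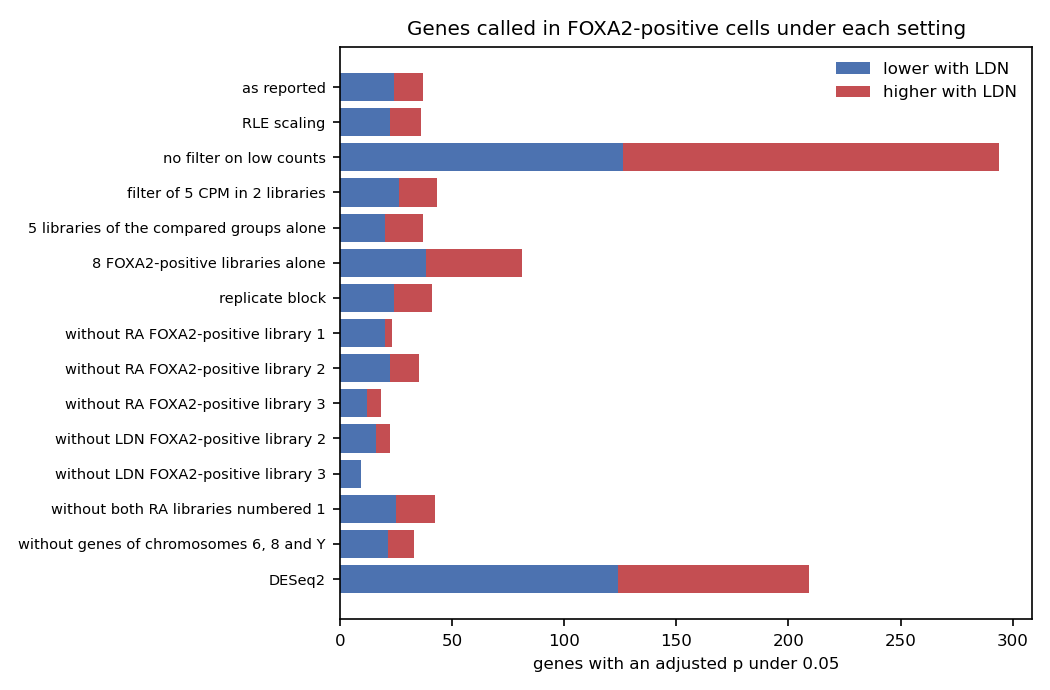
Number of genes with an adjusted p under 0.05 (x axis, linear from 0) in the comparison of RA + LDN with RA only in FOXA2-positive cells as reported and under 14 alternative settings, split into lower (blue) and higher (red). Counts run from 9, all lower, without LDN library 3 to 294 without a filter on low counts.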

How the data were processed

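Libraries of FOXA2-sorted mouse cells were prepared with the SMART-Seq v2 method, according to the labels' protocols. The authors deposited raw counts per Ensembl gene for each library. HTSeq 0.11.2, cutadapt 1.18, UMI-tools 1.0.0, DESeq2 1.26.0 and build mm10 are listed in the submitters' processing notes. Not given in the sources used here are the aligner, annotation release and strand setting. Summary lines that name no gene, 49.3% to 54.4% of all tallied reads, stayed out of library sizes and tests. Over the 17 libraries the total counts were 8435845 to 10796136.

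Symbols and coordinates came from GENCODE M21. In R 4.3.3, edgeR 4.0.16 kept genes by filterByExpr (minimum count 10, minimum total 15), scaled libraries by TMM and fitted 1 robust quasi-likelihood model to 6 groups (11 residual degrees of freedom), tested on simulated data. P-values were Benjamini-Hochberg adjusted over 17813 genes, with a threshold of 0.05. Each SE was approximated as the absolute log2 fold change over the root of its F statistic. Where a group had no count, folds are bounds against 3 counts over the group; ratios with 1 to 3 counts have exact 95% binomial intervals. Intervals and floors cover counting error only.

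Members and the 39 gene lists were chosen with earlier results of these data known, so counts within lists are descriptions. Named were genes called, at 5 CPM or more on average and without overlap, up to 15 in each direction, predicted symbols excepted, plus Foxa2, Shh and list members. Alternatives were DESeq2 1.42.0, RLE scaling, other filters, smaller models, replicate blocks, libraries left out and chromosomes 6, 8 and Y left out. Some results are not reported here.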

Additional observations from a re-analysis of the deposited data

Results flagged for a closer look

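The LDN difference of Gm17251, a non-coding transcript from a bidirectional promoter on chromosome 17, differed between the sorted fractions by 4.87 ± 0.57 (SE) on the log2 scale, by an edgeR interaction test (adjusted p = 1.02e-04). In FOXA2-positive cells it was at 5.199, 6.10 and 6.035 CPM with retinoic acid only and at 5.87 and 11.9 CPM with LDN. In FOXA2-negative cells it was at 102, 170.1 and 226 CPM with retinoic acid only and at 12.5, 3.30 and 10.2 CPM with LDN. High values were thus seen in the 3 FOXA2-negative retinoic acid libraries alone, since the BMP4 libraries of both fractions lay between 6.205 and 16.4 CPM. No group compared here held 4 or more libraries, so single libraries were not tested as outliers.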

How the results depend on the processing

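The 37 calls (13 higher, 24 lower) became 294 (168 and 126) without a filter on low counts, 209 (85 and 124) with DESeq2 and 81 (43 and 38) with the 8 FOXA2-positive libraries alone. All 37 were among the calls without a filter and with DESeq2, and 34 with the 8 libraries. The 5 compared libraries fitted alone also gave 37 calls, but only 21 were shared (11 higher and 10 lower). Without both retinoic acid libraries numbered 1 there were 42 calls, 27 of them shared. Left-out libraries gave 9 to 35 calls, 0 to 13 higher and 9 to 22 lower. The LDN and BMP4 comparison moved from 57 to 196 without a filter, 174 with DESeq2, 94 with the 8 libraries and 87 without both retinoic acid libraries numbered 1, and to 32 to 67 with libraries left out. In FOXA2-negative cells 7 calls became 83 without a filter, 39 with DESeq2 and 7 to 12 with libraries left out. The 1 difference between fractions became 31 without a filter, 6 with DESeq2 and 1 to 2 with libraries left out. The causes of these moves were not tested. The libraries left out singly were the 5 FOXA2-positive ones of the retinoic acid and LDN groups. No BMP4 or FOXA2-negative library was left out singly. How far the LDN and BMP4 comparison, the FOXA2-negative comparison and the difference between fractions rest on single libraries of those kinds was therefore not tested. Among the 17813 genes of the main fit, 2093 had an unadjusted p under 0.05 without a filter, against 1666 as reported. With a replicate block there were 41 calls, 32 of them shared. A block for arm and number, chosen after seeing the data, gave 1 difference between fractions, the same gene, and same-numbered fractions of all arms correlated at 0.031 to 0.590. Deviations of same-numbered LDN and retinoic acid libraries correlated at -0.054 and 0.020 over 6669 genes. With 2 LDN libraries the deviations of each mirror those of the other, so this check could say little about pairing. The numbers were not taken to pair the libraries. Bambi, not called, was at -0.19 under the block, and at -0.16 to 0.22 with libraries left out. Of 119 uncalled genes followed, 34 were called in at least 1 setting. Differences between fractions were not run in the 5-library and 8-library models. With 2 LDN libraries and a shared biological variation of 0.632 (edgeR's common coefficient), precision was limited by replicates as well as by depth.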

Other observations

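Some uncalled genes had differences without overlap between the FOXA2-positive libraries. Peg3 and Peg10, paternally expressed imprinted genes, were at 283, 214 and 211 CPM against 115 and 118 CPM (adjusted p = 0.0726) and at 842, 580.3 and 586.5 CPM against 363 and 322 CPM (adjusted p = 0.108). Both differed in the opposite direction from Peg12, which is imprinted but not a member of the imprinted list. Of that list's 18 genes measured 0 were called, and the median was -0.12. Lhx1, a LIM homeobox gene of the node and early mesoderm, was at 60.8, 41.2 and 57.8 CPM against 5.21 and 10.9 CPM (log2 fold change -2.73 ± 0.60, adjusted p = 0.0599). Gata6, an endoderm factor, was at 19.5, 9.38 and 21.5 CPM against 0.568 and 1.69 CPM (-3.91 ± 1.39, adjusted p = 0.368), whereas Sox17 had a positive difference. Peg3, Peg10, Lhx1 and Gata6 were each called in 4 alternative settings.

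The syndecan Sdc4 was at 271, 537 and 511 CPM against 873 and 971 CPM (1.07, adjusted p = 0.128). It was lowest in the retinoic acid library that stood apart, and the log2 fold change was 0.81 without that library (adjusted p = 0.275). All 7 mitochondrially encoded genes measured were uncalled, 6 with negative differences (median -0.37). Median log2 fold changes by chromosome, over genes of at least 20 CPM, ran from -0.15 on chromosome 6 to 0.08 on chromosome 8 among the autosomes, and 3 called genes lie on these chromosomes.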
